A study of Mus musculus with 18 samples.

Results

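The 10 genes described here encode secreted growth factors of the VEGF family (Vegfa, Vegfb, Vegfc and Pgf), the VEGF receptors Kdr, Flt1 and Flt4, the co-receptor Nrp1, and the angiopoietins Angpt1 and Angpt2. They were chosen by symbol from the 32285 genes of the deposited count table, after Ensembl identifiers had been matched to mouse symbols, and they were compared across the 3 region types of the study. All 10 passed the filter on low counts that left 16034 genes for testing, although Pgf had no count in 4 of the 6 non-cystic libraries. RNA was sequenced from pieces microdissected out of frozen sections of 3 kidneys from male C57BL/6 mice of the iKspCre-Pkd1del line, a model of adult-onset polycystic kidney disease. The region types were cystic tissue with high signal of the macrophage antigen F4/80 (F4/80-high), cystic tissue with low F4/80 signal (F4/80-low), and tissue away from cysts (non-cystic). Each kidney gave 2 libraries per region type, 18 in all, which the labels call biological replicates.

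Every region type, the non-cystic one included, carried the same genotype. The Cre is kidney-specific and tamoxifen-inducible, LoxP sites flank exons 2 to 11 of Pkd1, and tamoxifen was given by gavage at 12.5 mg/kg on postnatal days 18 and 19. The kidneys were collected in the mild cystic phase as judged by MRI, and no kidney without the deletion was part of the comparison. The age label was 269 for kidneys 1 and 3 and 297 for kidney 2, with no unit. The labels number the kidneys without saying whether each came from a separate mouse. The p-values measure how far differences between region types varied over these 3 kidneys, after differences between kidneys were fitted. That spread may in part be technical. Regions were picked on F4/80 signal, so macrophage genes are no finding here.

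VEGF ligands are made by epithelial, stromal and immune cells and act mainly on endothelium. Kdr is the main signalling receptor for VEGF-A, Flt1 binds VEGF-A, VEGF-B and placental growth factor tightly and acts largely as a decoy, Flt4 receives VEGF-C chiefly on lymphatic endothelium, and Nrp1 presents VEGF-A to Kdr and also binds semaphorins. Angpt1, from mural and other perivascular cells, activates the endothelial receptor Tek and stabilises vessels, whereas Angpt2, released mostly by endothelium that is being remodelled, competes with it at the same receptor. In kidney, podocytes and tubule cells are the best known sources of Vegfa, and glomerular and peritubular capillaries express Kdr and Flt1.

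The libraries held 5366651 to 9188813 counts. The mitochondrial share was 1.49% to 4.06% in F4/80-high libraries, 7.71% to 11.1% in F4/80-low libraries and 10.6% to 15.4% in non-cystic libraries, lowest in F4/80-high tissue. Its part in the results below was not tested. In 1 F4/80-low library, kidney 2 replicate 2, Spp1 took 8.9% of the counts. Other F4/80-low libraries were at 0.241% to 2.09%, and F4/80-high libraries at 6.41% to 14.1%. Without that library the test described below called 31 of 16029 genes between F4/80-low and non-cystic tissue, where all libraries gave 246 of 16034. Pkd1 averaged 9.50 ± 2.88 CPM in F4/80-high sums, 7.16 ± 2.01 CPM in F4/80-low sums and 6.31 ± 1.32 CPM in non-cystic sums (SD, n = 3 kidneys), a whole-gene value that says nothing about exons 2 to 11. In these bulk pieces, fewer cells of a type and less RNA per cell cannot be told apart.

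Between F4/80-high and non-cystic tissue, Angpt2, Nrp1 and Pgf rose, and Vegfb and Flt1 fell (edgeR quasi-likelihood test on the sums of the 2 libraries of each kidney and region type, kidney as a block, Benjamini-Hochberg adjusted p under 0.05 over all 16034 genes). Angpt2 was 9.64-fold higher and Nrp1 2.25-fold higher, whereas the size for Pgf, counted 6 times in all non-cystic libraries together, is not firm. Against the background, 3 of 10 genes were higher where 19.7% of all genes were higher, and 2 of 10 were lower where 19.5% of all genes were lower, shares that give no result about the family as a whole. The median log2 fold change was -0.12 over the 10 genes and 0.04 over all genes. Both lower calls depended on the scaling: with total counts in place of TMM factors the median of all genes moved to 0.65, 3 of 10 genes were higher and 0 were lower.

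**Figure D1:**
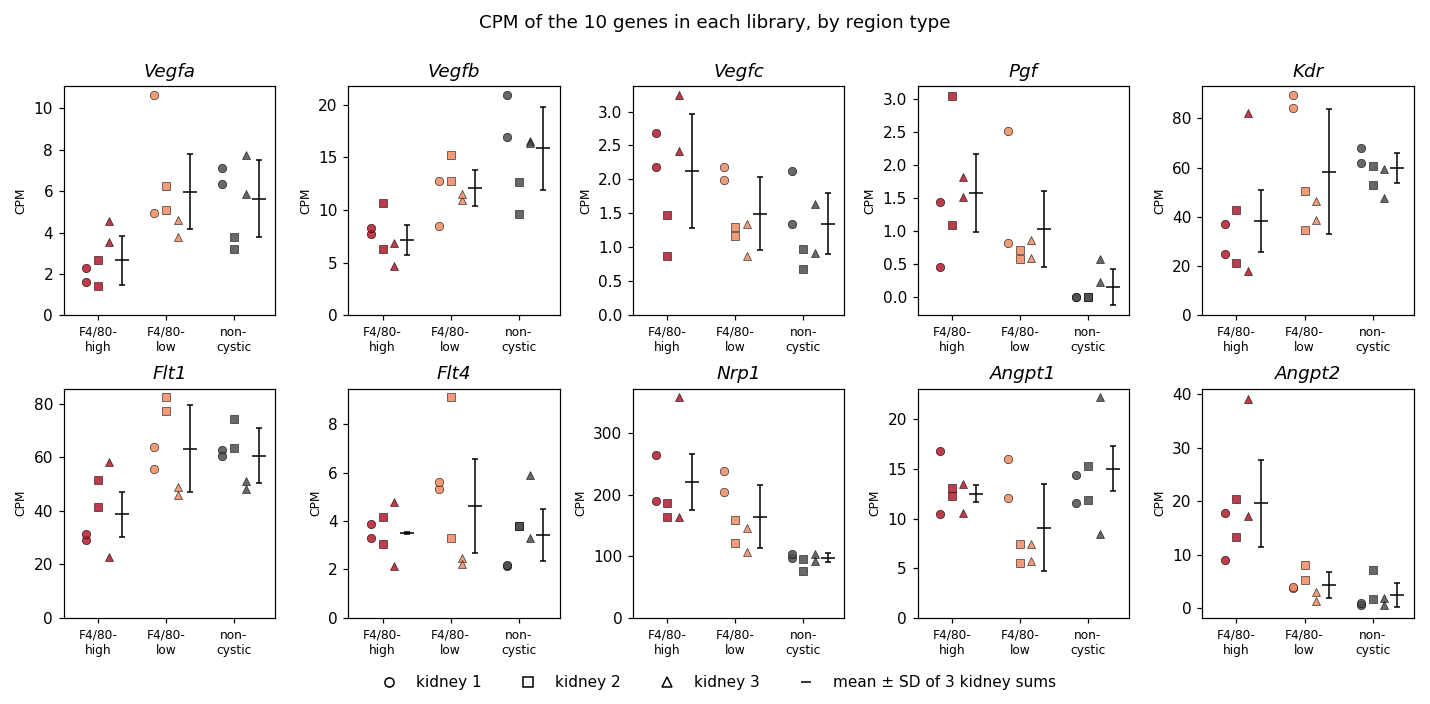
CPM (counts scaled to the TMM-adjusted library size; vertical axes) of the 10 genes in each of the 18 libraries, by region type, with the kidney as marker shape and the mean ± SD of the 3 kidney sums beside the points. The 6 F4/80-high libraries lie between 8.95 and 39.1 CPM for Angpt2, above every F4/80-low and non-cystic library, and between 164 and 358 CPM for Nrp1, above every non-cystic library.

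Promoter windows are shown for the 4 called genes whose start is in the RefSeq promoter table, 2 that rose and 2 that fell, so that their letters can be set side by side. Of the 10 genes, 8 are in the table, and Angpt1 and Angpt2 are not. Each window is the 250 bases before a RefSeq start (GRCm38.p6), written 5′ to 3′ along the gene: Nrp1 at chr8:128358823-128359072 on the plus strand, and on the minus strand Pgf at chr12:85177314-85177563, Flt1 at chr5:147726012-147726261 and Vegfb at chr19:6987652-6987901. The Nrp1 and Pgf windows lie inside the gene as annotated, whose outermost start is further upstream. Those of Flt1 and Vegfb end at the outer edge of the annotated gene, so the windows are not placed alike. Capitals mark matches on either strand to any of 5 motifs, which are the hypoxia-response core ACGTG, the GC box GGGCGG, the AP-1 site TGANTCA, the TATA box TATAAA and the ETS core CCGGAA.
Nrp1: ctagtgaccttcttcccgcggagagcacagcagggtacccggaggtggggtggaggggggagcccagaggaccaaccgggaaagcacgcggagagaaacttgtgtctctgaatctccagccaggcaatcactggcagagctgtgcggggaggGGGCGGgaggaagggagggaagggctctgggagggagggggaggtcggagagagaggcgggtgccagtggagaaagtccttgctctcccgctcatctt
Pgf: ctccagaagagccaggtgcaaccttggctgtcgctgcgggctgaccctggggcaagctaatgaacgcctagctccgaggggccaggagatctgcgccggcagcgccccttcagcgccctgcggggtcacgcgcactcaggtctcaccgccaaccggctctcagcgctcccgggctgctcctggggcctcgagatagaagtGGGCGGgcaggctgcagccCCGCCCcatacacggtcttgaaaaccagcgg
Flt1: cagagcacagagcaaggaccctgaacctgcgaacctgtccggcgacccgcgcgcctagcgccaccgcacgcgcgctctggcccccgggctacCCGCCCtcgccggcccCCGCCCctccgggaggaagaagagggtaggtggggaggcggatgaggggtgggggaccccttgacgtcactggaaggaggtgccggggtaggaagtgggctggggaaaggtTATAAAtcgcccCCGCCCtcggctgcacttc
Vegfb: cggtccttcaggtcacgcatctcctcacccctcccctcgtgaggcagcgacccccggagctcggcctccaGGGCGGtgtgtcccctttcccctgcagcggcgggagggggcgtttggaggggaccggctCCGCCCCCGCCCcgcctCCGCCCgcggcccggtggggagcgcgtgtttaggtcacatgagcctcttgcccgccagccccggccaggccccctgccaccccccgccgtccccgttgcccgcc
GC boxes were the most frequent match in the windows printed, 1 in Nrp1, 2 in Pgf, 3 in Flt1 and 4 in Vegfb, where one pair adjoins without sharing bases. A GC box was found in 32.7% of the 32851 promoter windows of that table. Flt1 alone of the 4 windows held TATAAA, which 12.4% of all windows hold. None of the 4 held the hypoxia-response core, found in 16.6% of all windows, the AP-1 site, found in 6.75%, or the ETS core, found in 12%. The table also holds a second Pgf window, at chr12:85175983-85176232, which had no match to any of the 5 motifs. The second Vegfa window, at chr17:46025164-46025413, lies well inside the gene as annotated and held 1 ACGTG. The first Vegfa window, which lies outside the annotated gene, held none. These are matches of letters in a window and say nothing of which factor binds there.

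Among the ligands, Vegfa (ENSMUSG00000023951, chr17:46016993-46032369, GRCm38) is the main driver of vessel growth. Its sums in kidneys 1, 2 and 3 were 1.89, 2.08 and 4.03 CPM in F4/80-high tissue, 7.89, 5.78 and 4.29 CPM in F4/80-low tissue and 6.89, 3.51 and 6.52 CPM in non-cystic tissue. The F4/80-high sums lay below every F4/80-low sum, narrowly in kidney 3, and overlapped the non-cystic range. The log2 fold change was -1.06 ± 0.39 (SE) against non-cystic (adjusted p = 0.0572) and -1.20 ± 0.40 against F4/80-low (adjusted p = 0.0523), both just outside the threshold. Of the 34 alternative fits, 12 called Vegfa lower in each of these comparisons, among them DESeq2 (adjusted p = 0.0373 and 0.0276) and the fit without kidney 3 (-1.32 with adjusted p = 0.0197, and -1.75 with adjusted p = 0.0084). Both comparisons also passed without non-cystic kidney 2 replicate 2, F4/80-high kidney 2 replicate 2 or F4/80-high kidney 3 replicate 1 (adjusted p between 0.0314 and 0.0497). The first passed without non-cystic kidney 3 replicate 1 (adjusted p = 0.0464) or F4/80-low kidney 1 replicate 1 (adjusted p = 0.0485), and the second without F4/80-low kidney 2 replicate 2 (adjusted p = 0.0481) or F4/80-low kidney 3 replicate 1 (adjusted p = 0.0485). With total counts the values were -0.43 (adjusted p = 0.442) and -0.74 (adjusted p = 0.221), and without kidney 1 they were -0.73 (adjusted p = 0.307) and -0.82 (adjusted p = 0.299). Counts were low, 13 to 45 in F4/80-high libraries, 26 to 80 in F4/80-low libraries and 22 to 50 in non-cystic libraries.

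Markers of podocytes and of the proximal tubule, both of which make Vegfa, did not move alike. None of the 10 podocyte markers was called between F4/80-high and non-cystic tissue, and their summed level was 190.3 to 539 CPM in F4/80-high, 38.1 to 425 CPM in F4/80-low sums and 77.8 to 193 CPM in non-cystic sums. At an unadjusted p under 0.05, for which no share of all genes is given here, the podocyte count was 1, Synpo. Of the 10 proximal tubule markers, 9 were lower in F4/80-high than in non-cystic tissue, with summed levels of 1432 to 9358 CPM in F4/80-high, 33430 to 60610 CPM in F4/80-low sums and 40520 to 56950 CPM in non-cystic sums. Their part in the Vegfa and Vegfb values was not tested.

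Vegfb (ENSMUSG00000024962, chr19:6982473-6987651) encodes a ligand of Flt1 and Nrp1 that is abundant in tissues rich in mitochondria. Its sums were 7.73, 8.17 and 5.52 CPM in F4/80-high kidneys 1, 2 and 3, 10.7, 14.0 and 11.4 CPM in F4/80-low and 19.4, 11.6 and 16.5 CPM in non-cystic tissue. Every F4/80-high sum was below every F4/80-low and every non-cystic sum, while single libraries overlapped. Vegfb fell by 1.15 on the log2 scale against non-cystic (SE 0.26, adjusted p = 0.00686, lower in 3 of 3 kidneys). The call was lost without kidney 1 (-1.07, adjusted p = 0.0686), with the libraries of replicate label 1 alone (-1.06, adjusted p = 0.0675) and with total counts (-0.54, adjusted p = 0.116). Against F4/80-low the value was -0.77 ± 0.26, not called (adjusted p = 0.0572). That comparison passed the threshold without F4/80-low kidney 1 replicate 2 (adjusted p = 0.0442) or without F4/80-high kidney 2 replicate 1 (adjusted p = 0.0251), and with total counts it was -0.28 (adjusted p = 0.424).

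Pgf (ENSMUSG00000004791, chr12:85166635-85177790), placental growth factor, binds Flt1 and is little made in resting adult tissue. It had 18, 43 and 30 counts in the F4/80-high kidneys 1, 2 and 3, 25, 10 and 10 counts in F4/80-low and 0, 0 and 6 counts in non-cystic tissue. Pgf was therefore detected in every kidney of both cystic region types and in 1 of 3 non-cystic kidneys. The fitted log2 fold change of F4/80-high against non-cystic was 3.39 ± 1.06 (adjusted p = 0.0295), a size that rests on the 6 non-cystic counts and on the prior count of the fit. The call was lost without kidney 1 (3.15, adjusted p = 0.0982), without kidney 2 (2.45, adjusted p = 0.159) and with replicate label 1 alone (2.77, adjusted p = 0.0908). The fitted value was 7.60 without kidney 3 (adjusted p = 0.00487), where every other non-cystic count was 0, and 5.16 without non-cystic kidney 3 replicate 1 (adjusted p = 0.00678). F4/80-low against non-cystic gave 2.80 ± 1.10, not called (adjusted p = 0.343). In scaled CPM, 5 of 6 F4/80-low libraries lay above the highest non-cystic library, which had 5 counts. Among them, kidney 3 replicate 2 had only 4 counts (0.5963 CPM). The sixth tied with that non-cystic library, at 5 counts in each and 0.5879 against 0.5876 CPM. With kidney 3 left out every remaining non-cystic count was 0, and that comparison passed (adjusted p = 0.0492). F4/80-high and F4/80-low overlapped, with a difference of 0.59 (95% interval -1.35 to 2.54, adjusted p = 0.657).

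Vegfc (ENSMUSG00000031520, chr8:54077606-54187096), the ligand of Flt4, was near the limit of detection, with 4 to 32 counts in a library. It averaged 2.12 ± 0.84 CPM in F4/80-high, 1.5 ± 0.53 CPM in F4/80-low sums and 1.35 ± 0.45 CPM in non-cystic sums (SD, n = 3 kidneys). The ranges overlapped in all 3 comparisons, and the value for F4/80-high against non-cystic was 0.65 (95% interval -0.38 to 1.67, adjusted p = 0.294).

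Among the receptors, Kdr (ENSMUSG00000062960, chr5:75932827-75978458) had sums of 29.5, 32.6 and 52.6 CPM in F4/80-high kidneys 1, 2 and 3, 87.7, 43.9 and 43.5 CPM in F4/80-low and 66.7, 57.5 and 55.5 CPM in non-cystic tissue. Each F4/80-high sum was below every non-cystic sum, but kidney 3 came within 3 CPM of it. The log2 fold change of F4/80-high against non-cystic was -0.64 ± 0.30, not called (adjusted p = 0.121). The 2 libraries of one kidney pulled this result in opposite directions: F4/80-high kidney 3 replicate 1 had 82.4 CPM of Kdr, whereas the other replicate of that kidney had 17.95 CPM, the lowest of the 18 libraries. Without that replicate 1 the value was -1.20 (adjusted p = 0.00231), and against F4/80-low it was -1.10 (adjusted p = 0.00721), where all libraries gave -0.57 (adjusted p = 0.207). Without kidney 3 as a whole the values were -0.98 (adjusted p = 0.0131) and -1.02 (adjusted p = 0.0221), and with replicate label 2 alone the first was -0.87 (adjusted p = 0.0433). Other alternatives gave a smaller difference: without F4/80-high kidney 3 replicate 2 the values were -0.39 (adjusted p = 0.506) and -0.33 (also not called), and with total counts -0.016 (adjusted p = 0.975) and -0.092 (adjusted p = 0.863). Without kidney 1 the value against F4/80-low was -0.063 (adjusted p = 0.889). F4/80-high kidney 3 replicate 1 was the highest of the F4/80-high libraries for 7 of the 10 genes, Kdr, Nrp1, Angpt2, Flt1, Flt4, Vegfa and Vegfc. F4/80-low and non-cystic tissue overlapped, with a difference of -0.075 (95% interval -0.75 to 0.60).

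Flt1 (ENSMUSG00000029648, chr5:147561604-147726011) was lower in F4/80-high tissue than in both other region types. Its sums were 29.2, 45.4 and 41.5 CPM in F4/80-high kidneys 1, 2 and 3, 60.4, 80.6 and 48.4 CPM in F4/80-low and 63.1, 69.5 and 49.3 CPM in non-cystic tissue. The sums of F4/80-high did not overlap those of either other region type, but single libraries did. Flt1 fell by 0.65 on the log2 scale against non-cystic (SE 0.20, adjusted p = 0.0253) and by 0.69 against F4/80-low (SE 0.20, adjusted p = 0.0303), in 3 of 3 kidneys each time. Both calls were lost with total counts (-0.019, adjusted p = 0.951, and -0.20, adjusted p = 0.502) and with upper quartile factors (adjusted p = 0.0642 and 0.0667). They were also lost, with smaller values, without kidney 1 (-0.44, adjusted p = 0.205, and -0.53, adjusted p = 0.172), without F4/80-high kidney 3 replicate 2 (-0.47, adjusted p = 0.19, and -0.52, adjusted p = 0.192) and with replicate label 1 alone (-0.41, adjusted p = 0.332, and -0.43, adjusted p = 0.365). Without kidney 2 the values stayed about as large (-0.67 and -0.63) with a wider SE, and the calls were lost (adjusted p = 0.121 and 0.19). Against F4/80-low the call was lost too, at values of a like size, without F4/80-high kidney 1 replicate 2 (-0.69, adjusted p = 0.0536), without F4/80-high kidney 2 replicate 2 (-0.63, adjusted p = 0.0519) and with those 2 region types fitted alone (-0.70, adjusted p = 0.0771). F4/80-low differed from non-cystic by 0.042 (95% interval -0.39 to 0.48).

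Flt4 (ENSMUSG00000020357, chr11:49609263-49652739) averaged 3.51 ± 0.03 CPM in F4/80-high, 4.63 ± 1.94 CPM in F4/80-low sums and 3.43 ± 1.07 CPM in non-cystic sums (SD, n = 3 kidneys), and it was not called in any comparison. The narrow F4/80-high spread belongs to the sums, since the 6 libraries ranged over 2.16 to 4.77 CPM. Among the 6 lymphatic endothelial markers, 3 were tested, Pdpn, which podocytes also express, Prox1 and Reln, and up to 2 of the 6 had no count in an F4/80-high sum and up to 3 in an F4/80-low or non-cystic sum. Their summed level was 36.7 to 63.2 CPM in F4/80-high, 13.1 to 23.5 CPM in F4/80-low sums and 7.07 to 10.8 CPM in non-cystic sums. Pdpn made up most of that sum in F4/80-high tissue, at 44.9 ± 15.2 CPM. Prox1, the transcription factor of lymphatic endothelial identity, went the other way, at 1.05 ± 0.68 CPM in F4/80-high and 4.43 ± 0.58 CPM in non-cystic sums (log2 fold change -2.14, adjusted p = 0.0092), and it was also lower than in F4/80-low tissue (-1.93, adjusted p = 0.0248). Which cells carried Pdpn or Prox1 in these bulk pieces was not tested, nor was the part of these markers in the Flt4 values.

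Nrp1 (ENSMUSG00000025810, chr8:128358604-128503363), whose promoter window is printed above, was higher in F4/80-high tissue under every alternative. Its sums were 222, 174 and 266 CPM in F4/80-high kidneys 1, 2 and 3, 224, 139.8 and 129.7 CPM in F4/80-low and 103, 89.5 and 100 CPM in non-cystic tissue. All 6 F4/80-high libraries and all 6 F4/80-low libraries, from 107 CPM up, lay above the highest non-cystic library at 103.8 CPM. Nrp1 rose by 1.17 ± 0.23 on the log2 scale in F4/80-high against non-cystic tissue (adjusted p = 0.00341, higher in 3 of 3 kidneys), and each of the 34 alternatives called it, with values of 0.84 to 1.79. F4/80-low against non-cystic gave 0.73 ± 0.23, higher in 3 of 3 kidneys, which did not pass (adjusted p = 0.208). It passed without kidney 3 (0.88, adjusted p = 0.0294) and with the 18 libraries as separate samples and the kidney as a block (0.76, adjusted p = 0.03). F4/80-high and F4/80-low overlapped, with a difference of 0.44 (95% interval -0.071 to 0.95, adjusted p = 0.191), which passed with total counts (0.91, adjusted p = 0.0308).

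Macrophages and mesenchymal cells can also make Nrp1, and markers of both are given beside it. Of 12 macrophage markers, 11 were higher in F4/80-high than in non-cystic tissue, with summed levels of 2069 to 5608 CPM in F4/80-high, 423 to 493 CPM in F4/80-low sums and 127 to 152 CPM in non-cystic sums. Of 7 tested fibroblast markers, 6 were higher, with summed levels of 532 to 998 CPM in F4/80-high, 206 to 304 CPM in F4/80-low sums and 53.1 to 84.8 CPM in non-cystic sums. Of 12 mural and mesangial markers, 6 were higher, with summed levels of 335 to 516 CPM in F4/80-high, 132 to 272 CPM in F4/80-low sums and 100 to 165 CPM in non-cystic sums. No macrophage or mural marker was at 0 in any sum. From F4/80-low to F4/80-high tissue Nrp1 was higher in 2 of 3 kidneys. In kidneys 1, 2 and 3 it went from 224 to 221.5, from 139.8 to 174.2 and from 129.7 to 265.8 CPM. Summed macrophage markers went from 423.1 to 2069, from 430 to 2351 and from 492.7 to 5608 CPM in the same kidneys. Summed fibroblast markers went from 237.9 to 670.3, from 303.8 to 532.4 and from 205.7 to 997.7 CPM. Their part in the Nrp1, Pgf and Angpt2 results was not tested.

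Of the angiopoietins, Angpt2 (ENSMUSG00000031465, chr8:18690263-18741562) had sums of 13.2, 17.0 and 28.8 CPM in F4/80-high kidneys 1, 2 and 3, 3.88, 6.96 and 2.26 CPM in F4/80-low and 0.795, 4.97 and 1.48 CPM in non-cystic tissue. All 6 F4/80-high libraries, 8.95 to 39.1 CPM, lay above all 12 others, of which the highest had 8.11 CPM. Angpt2 rose by 3.27 ± 0.57 on the log2 scale against non-cystic (adjusted p = 0.0029) and by 2.28 ± 0.53 against F4/80-low (adjusted p = 0.0183), in 3 of 3 kidneys each time. All 34 alternatives called the first, with values of 2.59 to 4.15. The second was called in 33 of 34 and lost without kidney 1 (2.57, adjusted p = 0.0739). F4/80-low against non-cystic was 0.99 ± 0.56, not called (adjusted p = 0.59, 95% interval -0.29 to 2.27). Angpt2 lies inside Mcph1, a gene of chromosome condensation, with which it shares no exon base. Mcph1 was at 7.78 ± 2.31 CPM in F4/80-high, 5.73 ± 0.65 CPM in F4/80-low sums and 4.30 ± 0.45 CPM in non-cystic sums, and its log2 fold change of F4/80-high against non-cystic was 0.83 (adjusted p = 0.0305).

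Angpt1 (ENSMUSG00000022309, chr15:42424723-42676977) had sums of 13.4, 12.6 and 11.6 CPM in F4/80-high kidneys 1, 2 and 3, 14.1, 6.44 and 6.69 CPM in F4/80-low and 13.3, 14.2 and 17.6 CPM in non-cystic tissue. The F4/80-low sums of kidneys 2 and 3 were the lowest of the 9, and that of kidney 1 was not low. F4/80-low against non-cystic gave -0.79 ± 0.29, not called (adjusted p = 0.299), and F4/80-high against non-cystic gave -0.28 (95% interval -0.91 to 0.36, adjusted p = 0.47), a direction that reversed with total counts. The gene shares 737 of its 5205 exon bases with the antisense transcript Gm17473, and the library kit does not mark strand, so the Angpt1 counts are uncertain to that extent. Gm17473 itself was at 3.12 ± 0.97 CPM in F4/80-high, 1.68 ± 0.56 CPM in F4/80-low sums and 4.09 ± 0.99 CPM in non-cystic sums.

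**Figure D2:**
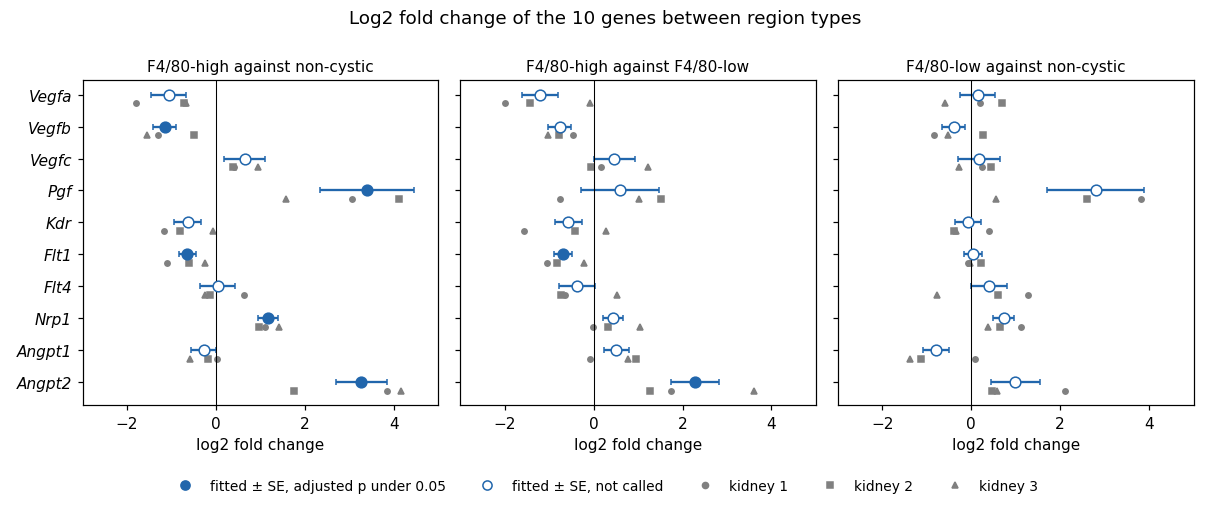
Log2 fold change (horizontal axis) of each gene in the 3 comparisons, with SE bars, filled where the adjusted p is under 0.05, and small grey marks for the difference within each kidney on the log2 CPM scale. Angpt2 is at 3.27 and 2.28 in the comparisons of F4/80-high with non-cystic and with F4/80-low, and no marker is filled for F4/80-low against non-cystic.

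Set against F4/80-low, F4/80-high tissue had 1 of 10 genes higher, Angpt2, where 10.3% of all genes were higher, and 1 of 10 lower, Flt1, where 14.0% of all genes were lower. Between F4/80-low and non-cystic tissue edgeR called 0 of 10 genes, where it called 1.53% of all genes, and DESeq2 also called 0. At an unadjusted p under 0.05 edgeR had 3, which were Pgf, Nrp1 and Angpt1. The share of all genes at that looser threshold is not given here, so this count cannot be set against the 1.53%. Counting instead the genes whose single libraries did not overlap, there were 2 of 10 between F4/80-high and non-cystic (Nrp1 and Angpt2, 27.4% of all genes). There was 1 of 10 between F4/80-high and F4/80-low (Angpt2, 16.9% of all genes) and 2 of 10 between F4/80-low and non-cystic (Nrp1 and Pgf, 2.18% of all genes). Pgf was set apart only by the scaling, with F4/80-low libraries of 4 and 5 counts against 5 counts in the highest non-cystic library. The 3 comparisons share their region types with each other and are not independent.

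Levels were compared between genes per kilobase of merged exon. This allows for annotated exon length, not for which transcripts of a gene were present, so the order between genes is approximate. Nrp1 had the highest mean level in every region type, 22.5 ± 4.68 CPM per kb in F4/80-high, 16.8 ± 5.29 in F4/80-low and 9.98 ± 0.74 in non-cystic sums (SD, n = 3 kidneys). In non-cystic tissue the level of Vegfb, 9.87 ± 2.44 CPM per kb, lay within the spread of Nrp1. Vegfb was above Nrp1 there in kidney 1 (12.06 against 10.57 CPM per kb) and kidney 3 (10.31 against 10.22), and below it in kidney 2 (7.25 against 9.14). Below them came Kdr at 6.64 ± 0.66, Flt1 at 4.49 ± 0.76, Angpt1 at 2.88 ± 0.43 and Vegfa at 1.32 ± 0.43 CPM per kb. The other 4 genes were under 1 CPM per kb there, and Angpt2 at 0.655 ± 0.608 could not be told apart from Vegfc at 0.550 ± 0.183 and Flt4 at 0.416 ± 0.130.

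In F4/80-high tissue the order of levels was different. Angpt2 was second at 5.33 ± 2.20 CPM per kb, within the spread of Vegfb at 4.45 ± 0.88 and Kdr at 4.23 ± 1.39. Flt1 followed at 2.87 ± 0.63 and Angpt1 at 2.4 ± 0.17 CPM per kb, which also overlapped. Vegfa, Vegfc, Pgf and Flt4 were all under 1 CPM per kb. In F4/80-low tissue Angpt2 was seventh of the 10, at 1.18 ± 0.65 CPM per kb, as it was in non-cystic tissue.

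**Figure D3:**
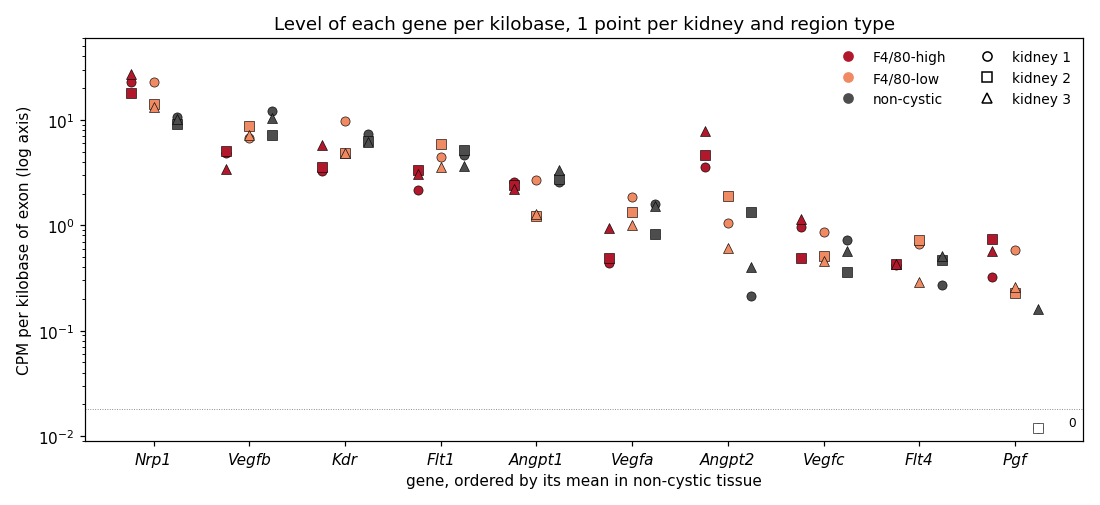
CPM per kilobase of exon (vertical log axis) of the 10 genes, 1 point per kidney and region type, with genes ordered by their mean in non-cystic tissue and open symbols under the dotted line for sums with no count. Nrp1 has the highest mean in all 3 region types, although the non-cystic points of Vegfb lie above it in kidneys 1 and 3, and the 3 F4/80-high points of Angpt2 lie above its F4/80-low and non-cystic points.

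Ratios of 2 genes within the same sum do not depend on the scaling of the libraries, and they are given as values with no test. The ratio of Angpt2 to Angpt1 CPM was 0.988, 1.35 and 2.48 in F4/80-high kidneys 1, 2 and 3, 0.274, 1.08 and 0.337 in F4/80-low, and 0.06, 0.351 and 0.0841 in non-cystic tissue. It was highest in F4/80-high and lowest in non-cystic tissue within each of the 3 kidneys, while the F4/80-low value of kidney 2 exceeded the F4/80-high value of kidney 1. The ratio of Nrp1 to Kdr separated the 3 region types with no overlap, at 5.06 to 7.51 in F4/80-high, 2.55 to 3.19 in F4/80-low and 1.55 to 1.80 in non-cystic tissue. With replicate label 1 alone its F4/80-high mean was 7.60 in place of 5.97. The ratio of Flt1 to Kdr overlapped throughout, at 0.79 to 1.39 in F4/80-high, 0.688 to 1.84 in F4/80-low and 0.888 to 1.21 in non-cystic tissue.

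Kdr and Flt1 were then set against endothelial markers. Of 19 tested, 2 were higher in F4/80-high than in non-cystic tissue, Ecscr and Pecam1, 0 were lower, and the median log2 fold change was 0.42. With total counts 13 of the 19 were higher. The summed level of the 20 markers was 444 to 687 CPM in F4/80-high, 390 to 774 CPM in F4/80-low sums and 312 to 448 CPM in non-cystic sums, with no marker at 0 in any sum. Kdr stood to that sum at 0.0559 to 0.0765 in F4/80-high, 0.0793 to 0.113 in F4/80-low and 0.129 to 0.178 in non-cystic tissue, which did not overlap. Flt1 stood to it at 0.0604 to 0.0778 in F4/80-high, 0.0780 to 0.146 in F4/80-low and 0.155 to 0.159 in non-cystic tissue. For both receptors the order F4/80-high, F4/80-low, non-cystic held from low to high within each kidney.

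Against Cdh5 alone, the endothelial cadherin, a denominator chosen after the values were seen, Kdr was at 3.80 to 4.51 in F4/80-high, 2.89 to 6.57 in F4/80-low and 5.96 to 11.3 in non-cystic tissue. Flt1 to Cdh5 was 3.56 to 5.30 in F4/80-high, 4.44 to 7.32 in F4/80-low and 7.20 to 10.7 in non-cystic tissue. F4/80-high and non-cystic tissue were apart for both receptors, and F4/80-low overlapped each of them. Leaving Ecscr, the marker with the smallest p, out of the sum kept the 3 region types just apart for Kdr, whereas for Flt1 F4/80-high then overlapped F4/80-low and stayed apart from non-cystic. Angpt2 to the summed markers was 0.0291 to 0.0419 in F4/80-high, 0.00501 to 0.0126 in F4/80-low and 0.00201 to 0.0111 in non-cystic tissue, and Angpt2 to Cdh5 was 1.79 to 2.47, 0.285 to 0.459 and 0.134 to 0.515 in the same order. With either denominator Angpt2 was higher in every F4/80-high sum than in every other sum. For Nrp1 the denominator mattered. Nrp1 to the summed markers overlapped, at 0.299 to 0.499 in F4/80-high, 0.253 to 0.333 in F4/80-low and 0.2 to 0.321 in non-cystic tissue. Nrp1 to Cdh5 was 20.3 to 30.1 in F4/80-high, 9.22 to 19.6 in F4/80-low and 9.27 to 19.8 in non-cystic tissue, so that F4/80-high did not overlap either other region type.

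**Figure D4:**
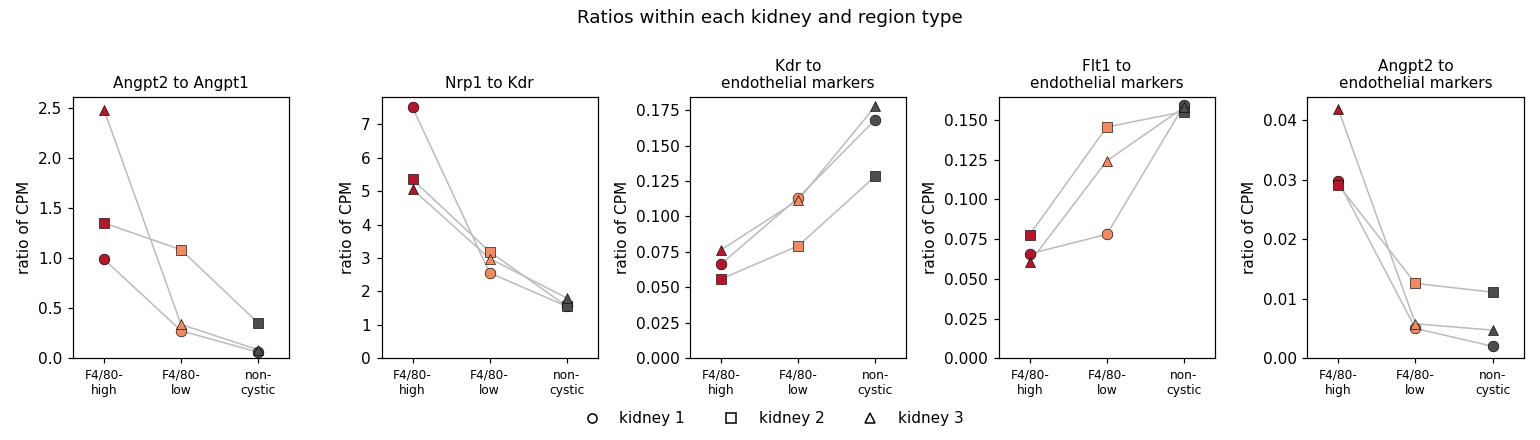
Ratios of CPM within each kidney and region type (vertical axes, 1 panel per ratio), with grey lines joining the 3 region types of a kidney. Nrp1 to Kdr and Angpt2 to endothelial markers are highest in F4/80-high tissue, and Kdr and Flt1 to endothelial markers are highest in non-cystic tissue.

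The rest of the pathway was read from a list of 41 further VEGF and angiopoietin genes, of which 39 were tested. In F4/80-high against non-cystic tissue 14 rose and 2 fell, and the list median was 0.51 where that of all genes was 0.04. With total counts 21 rose and 0 fell. Among those that rose were the co-receptor Nrp2, at 38.7 ± 12.3 CPM in F4/80-high and 12.7 ± 3.17 CPM in non-cystic sums (log2 fold change 1.63, adjusted p = 0.00397), and the ligand Vegfd, at 18.2 ± 2.85 and 8.39 ± 1.64 CPM in the same order (1.10, adjusted p = 0.0171). The angiopoietin receptor Tek, at 15.0 ± 1.75 CPM in F4/80-high and 12.5 ± 3.78 CPM in non-cystic sums, was not called (0.32, adjusted p = 0.364), nor was its partner Tie1, at 10.4 ± 3.81 and 12.0 ± 1.87 CPM in the same order (-0.23, adjusted p = 0.561). With total counts Tek passed (0.95, adjusted p = 0.0311) and the direction of Tie1 reversed.

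The secreted inhibitors of vessel growth Thbs2 and Adamts1 were among the 8 called genes of the list with the smallest p. Thbs2 was at 86.4 ± 47.1 CPM in F4/80-high and 1.93 ± 0.60 CPM in non-cystic sums (log2 fold change 5.29, adjusted p = 0.000391), and Adamts1 at 80.4 ± 16.9 and 19.7 ± 12.1 CPM in the same order (2.19, adjusted p = 0.00063). The matrix protein Emilin1 (2.27, adjusted p = 0.000649), the semaphorin Sema3c (1.60, adjusted p = 0.00038), and the signalling genes Prkcb (3.28, adjusted p = 0.000285), Nck1 (1.15, adjusted p = 0.000504) and Hspb1 (4.80, adjusted p = 0.00189) also rose. Prkcb is abundant in leukocytes, and Thbs2 and Emilin1 in fibroblasts. In F4/80-high against F4/80-low tissue 8 of the 39 rose and 0 fell, with Thbs2 at 4.08 (adjusted p = 0.00214) and Vegfd at 0.94 (adjusted p = 0.0487). Nrp2 missed the threshold there (0.95, adjusted p = 0.0534). Between F4/80-low and non-cystic tissue 0 of 39 were called.

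Hypoxia response genes were read because Vegfa and Flt1 are known hypoxia targets. Of 20 tested, 1 rose and 6 fell in F4/80-high against non-cystic tissue, with a median of -0.35. Car9, at 1.52 ± 0.59 CPM in F4/80-high and 5.68 ± 1.25 CPM in non-cystic sums, fell by 1.89 on the log2 scale (adjusted p = 0.0046), and Egln1, at 20.7 ± 3.58 and 34.0 ± 3.05 CPM in the same order, fell by 0.72 (adjusted p = 0.00796). Hk2, a glycolysis gene, rose to 5.48 ± 4.25 CPM in F4/80-high, against 0.158 ± 0.0727 CPM in non-cystic sums (4.99, adjusted p = 0.000942). With total counts 3 rose and 3 fell, and the list median was 0.26. The split of this list therefore depended on the scaling.

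For each called member, the 3 genes whose log2 CPM over the 9 sums was most like it were taken from the 8629 genes whose log2 CPM averaged 3 or more. For Angpt2 they were Rhoj, Cep170 and Kctd10 (Pearson r of 0.982, 0.979 and 0.978). For Nrp1 they were Golim4, Cyp20a1 and Cpm (r of 0.976, 0.975 and 0.973), and for Flt1 Bysl, Snx21 and Coq4 (r of 0.976, 0.976 and 0.972). For Vegfb they were Dnajc28, Ciao2a and Supv3l1 (r of 0.973, 0.97 and 0.967), and for Pgf H2afy2, Pde4b and Scarb1 (r of 0.956, 0.913 and 0.912). These are descriptions over 9 sums that share 3 kidneys and fall into 3 region types. Among the members, Vegfb and Angpt2 had r = -0.91 and Vegfa and Kdr r = 0.86 over the same sums.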

How the data were processed

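RNA of microdissected regions was sequenced in 18 libraries, and the authors deposited raw read counts per Ensembl gene with no normalization. The submitters' processing notes name HTSeq 0.11.0, fastp 0.20.1 and FastQC 0.11.9 with the build mm10/GRCm38, without their roles. Aligner, strand setting and annotation release were not given in the sources used here, and the kit does not mark strand. Gene positions and exon lengths come from GENCODE vM21, and 127 identifiers had no symbol.

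The 2 libraries of each kidney and region type were summed, giving 9 sums. After edgeR's default filter on low counts (16034 genes, 99.8% of counts), TMM factors and the quasi-likelihood test were applied to all 3 region types with the kidney as a block (R 4.3.3, edgeR 4.0.16, limma 3.58.1), and p-values were adjusted by Benjamini-Hochberg over all tested genes, with a threshold of 0.05. The pairing by kidney comes from the labels, and deviations of sums from the same kidney correlated at -0.154 to 0.275. Levels are TMM-scaled CPM, and correlations used log2 CPM with a prior count of 2. DESeq2 1.42.0, other scalings, filters, blocks, replicate labels and leaving out each kidney or library were the alternatives. The code was tested on simulated data.

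Genes were named by rule: all 10 members, the called genes with the smallest p of the other pathway list (up to 8) with Tek, Tie1, Nrp2 and Vegfd, up to 4 called genes from other lists, and the 3 genes most alike to each called member. Some called members of the lists are given as counts only. The members and lists were chosen with earlier results of these data known. Replicates set the precision given. No molecular identifiers are mentioned, so counts of reads are not independent molecules.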

Additional observations from a re-analysis of the deposited data

Results flagged for a closer look

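For each of the 10 genes the 6 libraries of each region type were searched for a single library far from the other 5 (the gap to the nearest of them, divided by the whole range, above Dixon's 95% critical value). Of the 30 groups searched, 3 held such a library, where chance gives about 1 in 20. Vegfa was at 10.63 CPM in F4/80-low kidney 1 replicate 1, and the next F4/80-low library was at 6.23 CPM. Pgf was at 2.525 CPM in the same library, and the next was at 0.874 CPM. Angpt2 was at 7.096 CPM in non-cystic kidney 2 replicate 2, and the next non-cystic library was at 1.88 CPM. That Angpt2 value lay below the lowest F4/80-high library, at 8.95 CPM.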

How the results depend on the processing

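Of 1001 fold changes of the 10 genes over 34 alternatives, 915 kept their direction and side of the threshold, 22 lost the call, 43 gained one and 21 reversed, none of them called. The number of all genes called moved as well and is given beside the counts. For F4/80-low against non-cystic, 0 of the 10 genes were called (246 of all 16034). There was 1 (Nrp1) with 18 libraries and a kidney block (601 of all 14444). There was also 1 with kidney and number as a replicate block (522 of all 14444). Leaving out a kidney or library gave 0 to 2 (2 without kidney 3, 578 of all 16184). For F4/80-high against non-cystic, 5 became 3 with total counts and 2 with replicate label 1 alone, and 2 (without kidney 1) to 7 (without kidney 3) in leave-outs. Of all genes, 19.7% were higher and 19.5% lower in the main fit. The alternatives called 8071 of 16034 with total counts and 3707 of 14645 with label 1 alone. Without kidney 1 it was 3359 of 16342, and without kidney 3 it was 5857 of 16184. For F4/80-high against F4/80-low, 2 became 1 with upper quartile factors, with the 2 region types alone and with label 1 alone. The number was 4 with no filter, with the 3 fits of 18 libraries and with the kidney block dropped from the fit of sums. Leave-outs gave 0 (without kidney 1) to 4 (without kidney 3, or without F4/80-high kidney 3 replicate 1). Of all genes, 10.3% were higher and 14.0% lower in the main fit of this comparison. The alternatives called 1905 of 14645 with label 1 alone, 988 of 16342 without kidney 1 and 2924 of 16184 without kidney 3. The cause was not tested.

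Same-numbered libraries share only a number: their deviations within a kidney correlated at -0.105 to 0.132, so the replicate block pairs nothing that the labels state.

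Log2 fold changes that reversed were, with total counts, Kdr for F4/80-low against non-cystic (0.076), Angpt1 for F4/80-high against non-cystic (0.32) and Flt4 for F4/80-high against F4/80-low (0.085). With label 1 alone they were Kdr for F4/80-low against non-cystic (0.036) and Flt4 for F4/80-high against F4/80-low (0.14). With label 2 alone they were Vegfa for F4/80-low against non-cystic (-0.18), and Flt4 (-0.44) and Angpt1 (0.052) for F4/80-high against non-cystic. Leave-outs of F4/80-low against non-cystic ranged over -0.13 to 0.43 for Vegfa, -0.38 to 0.085 for Kdr, -0.044 to 0.090 for Flt1 and -0.030 to 0.93 for Flt4. Those of F4/80-high against non-cystic ranged over -0.22 to 0.22 for Flt4 and -0.40 to 0.076 for Angpt1, and those of Pgf for F4/80-high against F4/80-low over -0.072 to 1.47.

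Of 105 mean ratios recomputed by label or without each kidney, alternatives chosen after seeing the data, 101 stayed within 1 SD. Ratios with another endothelial denominator, given above, were not among them. The other 4 were Nrp1 to Kdr in F4/80-high with label 1 alone (7.60) and in F4/80-low with label 2 alone (3.26), Flt1 to Kdr in F4/80-high with label 1 alone (1.43) and Flt1 to endothelial markers in non-cystic tissue with label 2 alone (0.164). Pgf, at 0 counts in 4 of 6 non-cystic libraries, and Vegfc failed stricter filters and then had no value. With 3 kidneys and 4 to 32 counts in a library for Vegfc, a difference inside its interval was not detectable at this depth.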

Other observations

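Genes of endothelial tip cells and sprouting did not move as 1 group. Without Angpt2, their summed level was 84.4 to 88.0 CPM in F4/80-high, 127 to 207 CPM in F4/80-low sums and 92.5 to 173 CPM in non-cystic sums. Between F4/80-high and non-cystic tissue, 1 of 10 tested was lower, Igfbp3, which is also on the capillary list below, and 5 were higher. Besides Angpt2, Plaur, the urokinase receptor, which leukocytes also express, was at 4.26 ± 0.73 CPM in F4/80-high and 0.721 ± 0.458 CPM in non-cystic sums (log2 fold change 2.70, edgeR adjusted p = 0.00282). The netrin receptor Unc5b was at 10.2 ± 3.22 CPM in F4/80-high, against 2.6 ± 0.74 CPM in non-cystic sums (1.90, adjusted p = 0.00266). Esm1, a VEGF-induced endothelial proteoglycan, was lower in F4/80-high than in F4/80-low tissue, at 13.9 ± 2.70 and 30.8 ± 9.41 CPM in that order (-1.13, adjusted p = 0.00639).

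Capillary markers also split. Among 6 peritubular capillary markers Igfbp3, Igfbp5 and Tnxb fell and Npr3 rose in F4/80-high against non-cystic tissue. Igfbp3 was at 31.2 ± 11.4 CPM in F4/80-high and 98.3 ± 30.2 CPM in non-cystic sums (-1.66, adjusted p = 0.000537), and Npr3 at 32.9 ± 23.6 and 5.63 ± 2.45 CPM in the same order (2.45, adjusted p = 0.00597). Of 5 tested glomerular endothelial markers, Plat rose (2.46, adjusted p = 0.0181) and Lpl, which other cell types also make, fell (-2.07, adjusted p = 0.00113). Of 6 thick ascending limb markers 3 fell, and of 10 distal and collecting duct markers 7 fell.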
